A study of Mus musculus with 12 samples.

Results

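The 4 R-spondins (Rspo1 to Rspo4), their receptors Lgr4, Lgr5 and Lgr6, and the membrane ubiquitin ligases Znrf3 and Rnf43 were followed in the mouse neural tube over 3 stages. The 9 genes were taken by name, with all of their 15 probe sets that name a single gene, out of 18193 genes and 34945 such probe sets on the array. Messenger RNA had been measured in neural tubes micro-dissected from ICR (CD-1) embryos, an outbred stock, at gestation days 8.5, 9.0 and 9.5 (GD8.5, GD9.0 and GD9.5), with no treatment or genotype difference between the stages. The labels give 4 biological replicates per stage and do not say whether a replicate is an embryo, a litter or a pool, so errors measure the spread between these samples. The 10 arrays deposited as log2 values were compared (2 at GD8.5, 4 at GD9.0, 4 at GD9.5). The other 2, GD8.5 replicates 1 and 2, were deposited as linear intensities. The family was chosen partly on measured values, the stage changes of Rspo1, Rspo2 and Rspo3 on these arrays. The members' values and changes are therefore given as a description, with no p-value.

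R-spondins are secreted proteins that raise the response of a cell to Wnt ligands. Znrf3 and Rnf43 sit in the cell membrane and mark Frizzled receptors for removal, which lowers that response. An R-spondin bound to Lgr4, Lgr5 or Lgr6 draws the ligase away, so that Frizzled and its co-receptor Lrp6 stay at the surface. Znrf3, Rnf43 and Lgr5 are themselves known Wnt target genes in several tissues. In the neural tube R-spondins are known from the dorsal midline, the roof plate, which is also a source of Wnt1 and Wnt3a.

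The ligands Rspo1, Rspo2 and Rspo3, on whose changes the family was chosen, rose at both steps and ended 5.86-fold to 13.0-fold above GD8.5. The receptors and ligases with a measurable signal, Lgr4, Lgr5 and Znrf3, moved by at most 1.42-fold over the same day. Rspo4, Lgr6 and Rnf43 had no probe set with a stage mean above the array background. That background was a log2 level of 1.43, under which 95% of 38 olfactory receptor genes lay. Of the members' 15 probe sets, 7 had a mean above it, and they belonged to 6 genes.

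**Figure D1:**
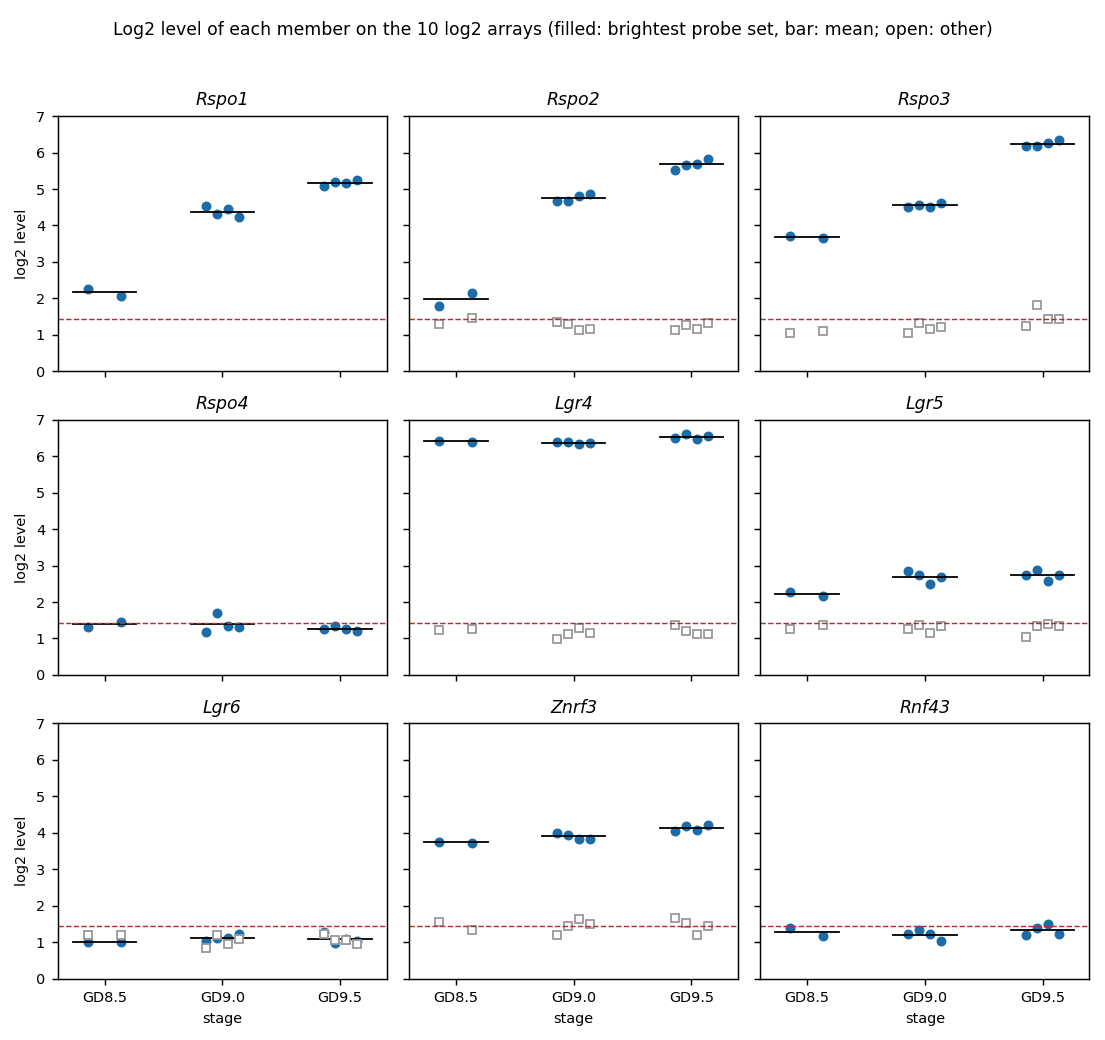
Log2 level (vertical axis) of each member at the 3 stages (horizontal axis) on the 10 log2 arrays. Filled points are arrays for the brightest probe set with the stage mean as a bar, open squares are the other probe set where there is one, and the dashed line is the background of 1.43. Rspo1, Rspo2 and Rspo3 climb at each stage, Lgr4 stays between 6.34 and 6.60, and Rspo4, Lgr6 and Rnf43 lie around the background.

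For the stretch around a gene's start, the RefSeq promoter table (GRCm38.p6, 250 bases before the start and 50 after it) held 5 of the 9 members. Rspo1 and Rspo4 are shown as the ligands with an entry: the first rose with stage, and the second had stage means under the background. Both lie on the plus strand, Rspo1 at chr4:124986180-124986479 and Rspo4 at chr2:151842677-151842976, and capitals mark the GC box, GGGCGG on either strand.
Rspo1: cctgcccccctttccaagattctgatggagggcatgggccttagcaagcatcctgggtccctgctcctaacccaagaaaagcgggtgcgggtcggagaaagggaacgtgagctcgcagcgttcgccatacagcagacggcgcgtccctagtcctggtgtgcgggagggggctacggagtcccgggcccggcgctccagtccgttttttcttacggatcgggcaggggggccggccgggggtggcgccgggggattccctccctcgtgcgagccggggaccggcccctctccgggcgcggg
Rspo4: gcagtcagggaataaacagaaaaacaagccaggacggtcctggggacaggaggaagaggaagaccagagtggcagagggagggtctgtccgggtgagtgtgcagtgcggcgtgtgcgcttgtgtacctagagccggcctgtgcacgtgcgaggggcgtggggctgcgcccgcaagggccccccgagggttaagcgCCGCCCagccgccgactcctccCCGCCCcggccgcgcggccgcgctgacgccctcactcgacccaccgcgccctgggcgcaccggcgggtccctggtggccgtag
Both windows were rich in CpG, the pair of bases that DNA methylation acts on, with 29 sites for Rspo1 and 31 for Rspo4, against a median of 7 over 32851 promoters. Rspo4 had 2 GC boxes and Rspo1 had 0, and 35.7% of all promoters held at least 1. The letters CTTTGAT and CTTTGTT, forms of the site read by the Wnt-dependent TCF and LEF factors, were searched on both strands. Neither was in either window, and 3.73% and 5.85% of all promoters held them. A TATA box, TATAAA, was in neither, against 13.6% of all promoters. The windows are a description, and no factor was measured on them.

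Among the ligands, Rspo2 made the largest move. Its brighter probe set read 1.80 and 2.16 at GD8.5, then 4.68, 4.68, 4.81 and 4.85 at GD9.0, and 5.51, 5.66, 5.70 and 5.83 at GD9.5. No array of one stage overlapped another, and the GD8.5 arrays lay just above the background. The log2 change was 2.78 ± 0.11 (SE of the fit) from GD8.5 to GD9.0, a 6.86-fold rise and the top rank among the 18193 genes. A further 0.92 ± 0.09 followed by GD9.5. Of the full change of 3.70 ± 0.11, 75.1% fell in the first interval. The other Rspo2 probe set stayed between 1.14 and 1.47 on all 10 arrays, around the background. Averaging both probe sets gave a first-interval change of 1.31.

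Rspo1, an activator of Wnt signalling also known from ovary development, went the same way. It has a single probe set, which read 2.25 and 2.08 at GD8.5, 4.53, 4.31, 4.45 and 4.24 at GD9.0, and 5.08, 5.19, 5.17 and 5.25 at GD9.5. The stages again did not overlap. The log2 changes were 2.22 ± 0.09 (4.66-fold, rank 6 of all genes) and then 0.79 ± 0.07 (1.73-fold, rank 312). The first interval held 73.7% of the full 3.01 ± 0.09, so Rspo1, like Rspo2, changed more before GD9.0 than after it.

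Rspo3, which is also known for its need in placental and vascular development, had the reverse order of steps. Its brighter probe set read 3.72 and 3.67 at GD8.5, 4.51, 4.56, 4.51 and 4.62 at GD9.0, and 6.17, 6.19, 6.26 and 6.36 at GD9.5. It was the ligand with the tightest replicates at GD8.5 and GD9.0, with SDs of 0.035 and 0.053, and the 3 stages were fully apart. The log2 change was 0.85 ± 0.07 in the first interval (1.81-fold, rank 141) and 1.70 ± 0.06 in the second (3.24-fold, rank 32). The first interval held 33.5% of the full 2.55 ± 0.07. Its other probe set stayed between 1.06 and 1.31 up to GD9.0 and read 1.23 to 1.80 at GD9.5. Averaging both gave 0.48 and 0.99 for the 2 steps.

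The second step minus the first was -1.43 ± 0.14 for Rspo1, -1.86 ± 0.17 for Rspo2 and 0.84 ± 0.11 for Rspo3 on the log2 scale. The steps share the GD9.0 arrays, so these differences are not separate from the changes above. They place Rspo1 and Rspo2 as early risers and Rspo3 as a late one over this day.

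**Figure D2:**
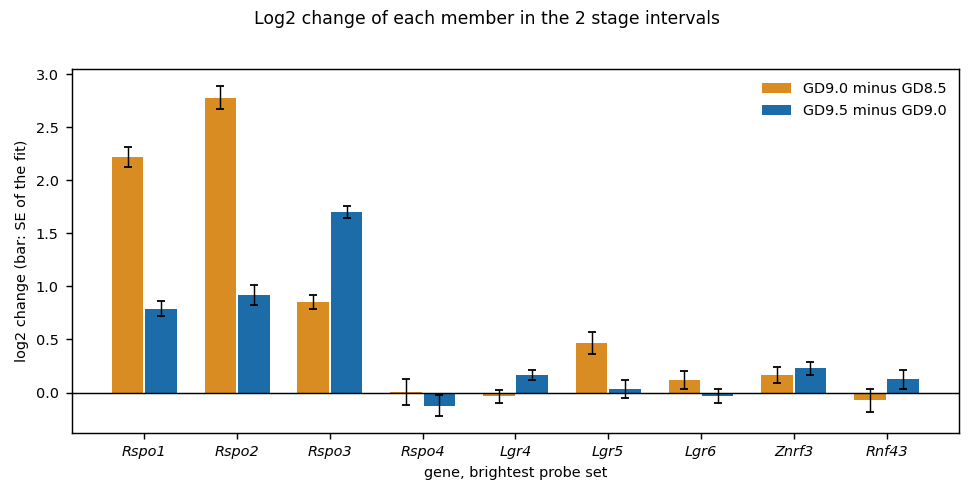
Log2 change (vertical axis) of the brightest probe set of each member (horizontal axis) from GD8.5 to GD9.0 (orange) and from GD9.0 to GD9.5 (blue), with the SE of the fit as error bars. The first bar is the taller one for Rspo1 (2.22 against 0.79) and Rspo2 (2.78 against 0.92), and the second for Rspo3 (0.85 against 1.70).

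Rspo4, the fourth ligand, known for its role in nail formation, gave no measurable level. Its arrays read 1.31 and 1.46 at GD8.5, 1.17, 1.71, 1.34 and 1.33 at GD9.0, and 1.27, 1.34, 1.25 and 1.20 at GD9.5. The stages overlapped and the means lay under 1.43 at each of them, although single arrays lay above it, so no change is given.

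The GD8.5 arrays deposited on the linear scale had no part in choosing the family and offer a second look at its starting point. Ranking all probe sets within an array removes the difference in scale, but not other differences between the 2 kinds of array. Olfactory receptor genes had their 95th percentile at rank 47.4 and 49.0 on these arrays, and at 40.8 and 43.8 on the log2 GD8.5 arrays. Rspo1 stood at the 55.0th and 55.3rd percentile on the 2 linear arrays and at the 58.4th and 55.6th on the GD8.5 log2 arrays, below the 75.3rd to 77.2nd of GD9.0. Rspo2 stood at 54.5 and 63.8, against 50.1 and 57.0 on the log2 arrays and 78.2 to 79.4 at GD9.0. Rspo3 stood at 69.4 and 71.5, against 71.6 and 71.5, and at 76.8 to 77.9 at GD9.0. For these 3 genes each of the 4 GD8.5 arrays ranked the probe set below each GD9.0 array. The share of all probe sets that do so was not counted, so nothing is read from this. With GD8.5 taken from the linear arrays alone, after log2 and quantile normalization, the first-interval changes were 2.29 ± 0.08 for Rspo1, 2.31 ± 0.17 for Rspo2 and 0.95 ± 0.09 for Rspo3. That fit uses the same GD9.0 arrays as before and called 4116 of all 18193 genes higher in the first interval. In it all GD8.5 arrays are linear and all GD9.0 arrays log2, so stage and kind of array cannot be told apart. The errors do not measure that difference.

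**Figure D3:**
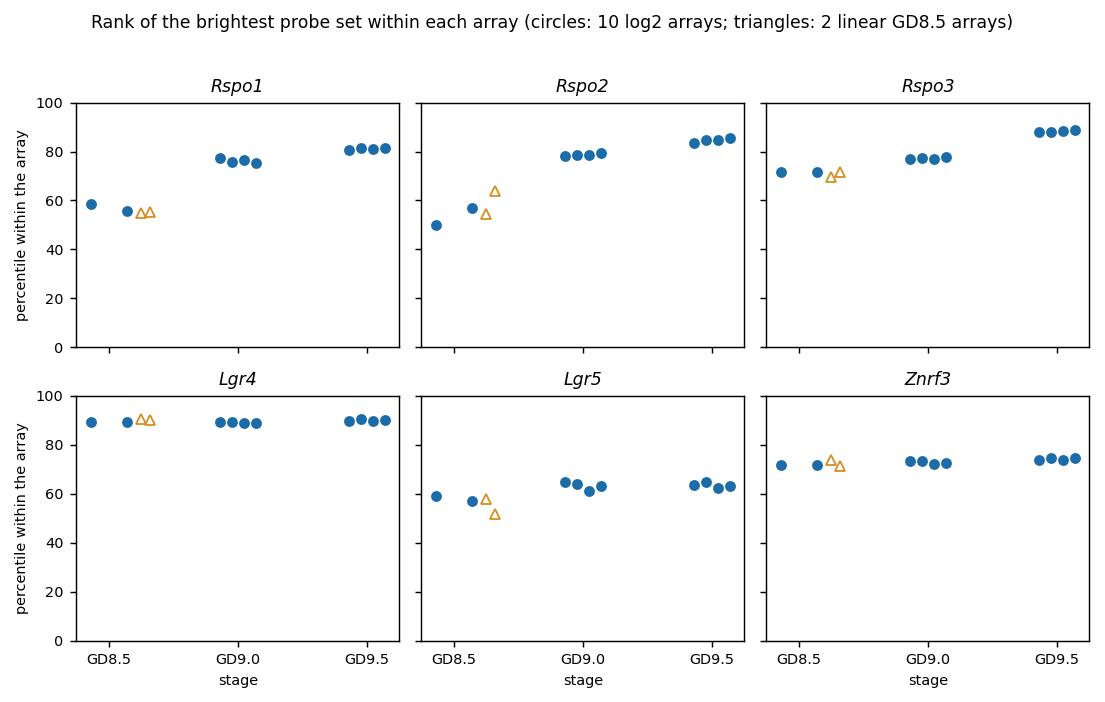
Percentile of the brightest probe set among all non-control probe sets of the same array (vertical axis) by stage (horizontal axis). Circles are the 10 log2 arrays and triangles the 2 linear GD8.5 arrays. For Rspo1, Rspo2 and Rspo3 the triangles lie near the GD8.5 circles and under the GD9.0 ones, and for Lgr4 and Znrf3 all stages lie between the 88.8th and 90.6th and between the 71.3rd and 74.8th percentile.

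Of the receptors, Lgr4, the broadly expressed member of the group, hardly moved. Its main probe set read 6.43 and 6.39 at GD8.5, 6.39, 6.40, 6.34 and 6.35 at GD9.0, and 6.49, 6.60, 6.48 and 6.55 at GD9.5. On the log2 arrays GD8.5 and GD9.0 overlapped, and all GD9.5 arrays lay above both. The linear GD8.5 arrays ranked the probe set at the 90.6th and 90.1st percentile, against 89.6 to 90.4 at GD9.5. The log2 change was -0.04 ± 0.06 and then 0.16 ± 0.05, a 1.12-fold rise. The call for that rise was lost when all 45037 non-control probe sets were tested together. The second Lgr4 probe set stayed between 0.97 and 1.37.

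Lgr5, known as a marker of Wnt-dependent stem cells in gut and hair follicle, had a low signal with one small rise. It read 2.29 and 2.16 at GD8.5, 2.86, 2.73, 2.49 and 2.68 at GD9.0, and 2.74, 2.87, 2.57 and 2.73 at GD9.5. All arrays of the later stages lay above GD8.5, and GD9.0 and GD9.5 overlapped throughout. The log2 changes were 0.47 ± 0.11 (1.38-fold) and 0.04 ± 0.09. The first call and the full-day call were lost without GD8.5 replicate 4 and with the mean of both probe sets (0.21 in the first interval). The second probe set stayed between 1.04 and 1.40.

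Lgr6, the third receptor, was at the background with both probe sets, which read 0.83 to 1.26 over the 10 log2 arrays. One of them ranked at the 53.4th percentile on both linear GD8.5 arrays and at the 23.2nd and 20.8th on the log2 arrays of that stage. Whether Lgr6 was measured at GD8.5 thus differed between the 2 kinds of array, and the cause was not tested.

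Of the ligases, Znrf3 rose by a small amount in the second interval. Its main probe set read 3.76 and 3.71 at GD8.5, 4.00, 3.93, 3.84 and 3.83 at GD9.0, and 4.05, 4.19, 4.07 and 4.21 at GD9.5. The log2 arrays of the stages did not overlap, but linear GD8.5 replicate 1 ranked the probe set at the 73.7th percentile, above the 72.2nd to 73.6th of GD9.0. The log2 changes were 0.16 ± 0.07, which did not pass, and 0.23 ± 0.06, for a full-day change of 0.39 ± 0.07 (1.31-fold). The second-step call was lost without GD9.5 replicate 4 (0.20). With GD8.5 taken from the linear arrays the full-day change was 0.23 ± 0.10, also without a call. The other Znrf3 probe set read 1.19 to 1.65 and did not move with stage.

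Rnf43, the second ligase, had 1 probe set and no measurable level. It read 1.39 and 1.16 at GD8.5, 1.23, 1.32, 1.23 and 1.03 at GD9.0, and 1.19, 1.38, 1.50 and 1.23 at GD9.5, with all stages overlapping. No stage mean reached the background.

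By limma's moderated test with Benjamini-Hochberg adjustment at 0.05 over all genes, 4 members were higher at GD9.0 than at GD8.5, where 6.78% of all genes were called higher. From GD9.0 to GD9.5 it was 5 members against 14.1%, and over the full day 5 against 15.5%. In these tests 0 members were called lower, where 6.74%, 10.3% and 13.1% of all genes were. In the fit over all probe sets, 4, 4 and 5 of the 15 were called higher, against 4.28%, 8.93% and 10.4%, and 0 lower, against 3.68%, 8.1% and 8.96%. Arrays lay wholly above those of the earlier stage for 6, 5 and 6 members, against 17.6%, 15.1% and 23.2% of genes. Nothing is read from these counts, because the family was chosen with its changes known, and Lgr6, counted in the first of them, lay under the background. The median change of the 9 members was 0.16, 0.16 and 0.39, beside -0.0019, -0.0077 and -0.016 over all genes.

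Some genes of other kinds had nearly the same course as the ligands. Likeness was taken as the root mean square difference between log2 values over the 10 log2 arrays after each gene's mean was subtracted. Nearest to Rspo1 were Clec1b, a receptor of platelets and their precursors (0.12), Zic1, a transcription factor of dorsal neural cells (0.15), and Col3a1, a collagen of mesenchyme (0.18). Nearest to Rspo2 were Zic1 (0.20), Neurog1, a proneural factor (0.30), and Clec1b (0.31). Nearest to Rspo3 were Hemgn, a gene of blood precursors (0.074), Neurod4, a proneural factor (0.12), and the predicted gene Gm715 (0.12). For Neurod4 and Neurog1 the other probe sets moved less, down to -0.12 for Neurod4 in the second interval and -0.05 for Neurog1 in the first. Rspo1 and Rspo2 differed by 0.30 from each other, with 14 genes closer to Rspo1 than Rspo2 was and 2 closer to Rspo2 than Rspo1 was. Rspo3 differed by 0.56 from Rspo1 and by 0.71 from Rspo2, and 249 and 594 genes were closer to it than these. Genes near 1 ligand are thus known from neural, mesenchymal and blood cells alike.

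The other Wnt pathway genes moved both ways, with more called lower in the first interval and more called higher in the second. Of 69 measured genes in 5 lists drawn up by role, 6 rose and 15 fell in the first interval (8.70% and 21.7% of them). In the second, 23 rose and 8 fell (33.3% and 11.6%). Their median change was -0.064 and then 0.11. Of all genes, 6.78% rose and 6.74% fell in the first interval, and 14.1% and 10.3% in the second. These shares also stand beside the list counts below from the same fit, but not beside counts under other settings. With GD8.5 from the linear arrays, 13 pathway genes were higher in the first interval. Of all 18193 genes that fit called 4116 higher and 2915 lower there, and 1656 higher in the second interval. With all 12 arrays 10 pathway genes were higher in the second, beside 1259 of all genes higher and 1036 lower. Counts of all genes for leaving out an array are given at the end.

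Of 19 Wnt ligands, 13 had a mean above the background. In the first interval 4 rose and 1 fell, with a median of -0.044, and in the second 4 rose and 0 fell, with a median of -0.015. Without GD8.5 replicate 3, or without replicate 4, 2 rose in the first, with GD8.5 from the linear arrays 5 fell, and with all 12 arrays 0 rose in the second. Wnt8b, a ligand of the forebrain and its dorsal midline, had the largest change, from 3.16 to 5.32 (2.16 ± 0.07) and on to 5.71 (0.39 ± 0.05, a call lost with all 12 arrays). All 3 of its probe sets were higher in the first interval, the least moved by 0.24. Wnt7b, a ligand of the developing central nervous system, rose by 0.62 ± 0.11 in the first interval, a call lost without GD8.5 replicate 3, and its other probe set changed by 0.12. Wnt9a rose by 0.71 ± 0.11 in the second, a call lost with all 12 arrays, and its other probe set changed by -0.14. Wnt3a of the roof plate changed by 0.05 ± 0.10 and rose by 0.35 ± 0.08 (call also lost with 12 arrays), and Wnt1 was at -0.09 ± 0.13 and -0.16 ± 0.11. Wnt2, a ligand of heart and lung mesoderm, fell from 2.18 to 1.28, under the background.

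Of 12 receptors that Znrf3 and Rnf43 are known to clear, 1 rose and 3 fell in the first interval, and 4 rose and 2 fell in the second, with medians of -0.11 and 0.021. With all 12 arrays 5 fell in the first, and with the mean of each gene's probe sets 1 rose and 1 fell in the second. Fzd5, a Frizzled of eye field and endoderm, fell at both steps (-1.01 ± 0.12 and -1.13 ± 0.10), though its other probe set changed by 0.05 and -0.06. So did Fzd7 (-0.61 ± 0.06 and -0.35 ± 0.05), its second call lost with the mean of its probe sets (the other changed by -0.14 and 0.14). Fzd2 fell in the first (-0.50 ± 0.07). Fzd10, a Frizzled of the dorsal neural tube, was at 0.16 ± 0.10 and then rose from 3.69 to 4.67 (0.98 ± 0.08), while its other probe set changed by -0.0026. The co-receptor Lrp6 was at 5.79, 5.86 and 5.87 with changes of 0.06 ± 0.08 and 0.01 ± 0.06. Fzd3 was the gene counted as risen in the first interval (0.48 ± 0.05). Its probe sets went opposite ways in the second, where it is also counted, and no value is given for that step.

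Of 17 genes of the beta-catenin core, 0 rose and 5 fell in the first interval, and 9 rose and 1 fell in the second, with medians of -0.13 and 0.24. Without GD8.5 replicate 3 or 4, 3 and 2 fell in the first, where 2 rose with the mean of each gene's probe sets, and with all 12 arrays 5 rose in the second. Tcf7l2, a transcription factor that binds beta-catenin, rose from 5.37 to 6.02 (0.64 ± 0.09) in the second interval. Axin1, a scaffold of the complex that destroys beta-catenin, rose by 0.43 ± 0.07, a call lost with all 12 arrays. Tcf7l1, a repressor of the same factor family, fell by 0.32 ± 0.06 and then rose by 0.27 ± 0.05. The fall was not called without GD8.5 replicate 3, nor the rise with the mean of its probe sets. For Lef1 the first-interval value of -0.43 ± 0.07 changed sign in 1 of the fits that used the linear arrays. Beta-catenin itself, Ctnnb1, was at 10.84, 10.85 and 10.97, with no call in either interval. Csnk1a1, counted as fallen in the first interval, and Apc, counted as fallen in the second, each had probe sets that moved opposite ways there.

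Of 15 Wnt target and feedback genes, 1 rose and 4 fell in the first interval, and 5 rose and 2 fell in the second, with medians of -0.063 and -0.015. With GD8.5 from the linear arrays 5 rose in the first and 2 in the second, where 1 rose with all 12 arrays and 3 without GD9.0 replicate 3 or GD9.5 replicate 1. Axin2, the most general Wnt target, was at 5.37, 5.32 and 5.54, with changes of -0.04 ± 0.07 and 0.22 ± 0.05. The second was called, though not with all 12 arrays, with GD8.5 from the linear arrays or with the mean of its probe sets. Dkk1, a secreted blocker of Lrp6, fell at both steps (-0.81 ± 0.07 and -0.96 ± 0.06, the other probe set -0.47 and -0.40), and Myc fell in the first (-0.52 ± 0.09). Cdx1, a homeobox target of the caudal embryo, went from 1.94 to 1.33, under the background. Apcdd1, a membrane inhibitor of Wnt receptors, rose in the first interval (0.70 ± 0.07), and the cyclin Ccnd1 rose in the second (0.57 ± 0.05). Sp5 fell at both steps (-0.48 ± 0.08 and -0.44 ± 0.07). Its first call was lost in both fits that used the linear arrays, with a change of sign in 1 of them. Genes of this list that are induced by Wnt and genes that block it thus moved both ways while the 3 ligands rose.

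Of 6 other proteins that bind R-spondins, Lgr receptors or the ligases, 0 rose and 2 fell in the first interval, and 1 rose and 3 fell in the second. Gpc3, a cell-surface glypican, fell (-0.58 ± 0.06 and -0.45 ± 0.05), while its relative Gpc4 rose in the second interval (0.96 ± 0.07). Sdc4, a syndecan known to bind Rspo3, fell by 1.03 ± 0.11 on the log2 scale in the second, a call lost without shared probe sets, and its other probe set changed by -0.34.

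**Figure D4:**
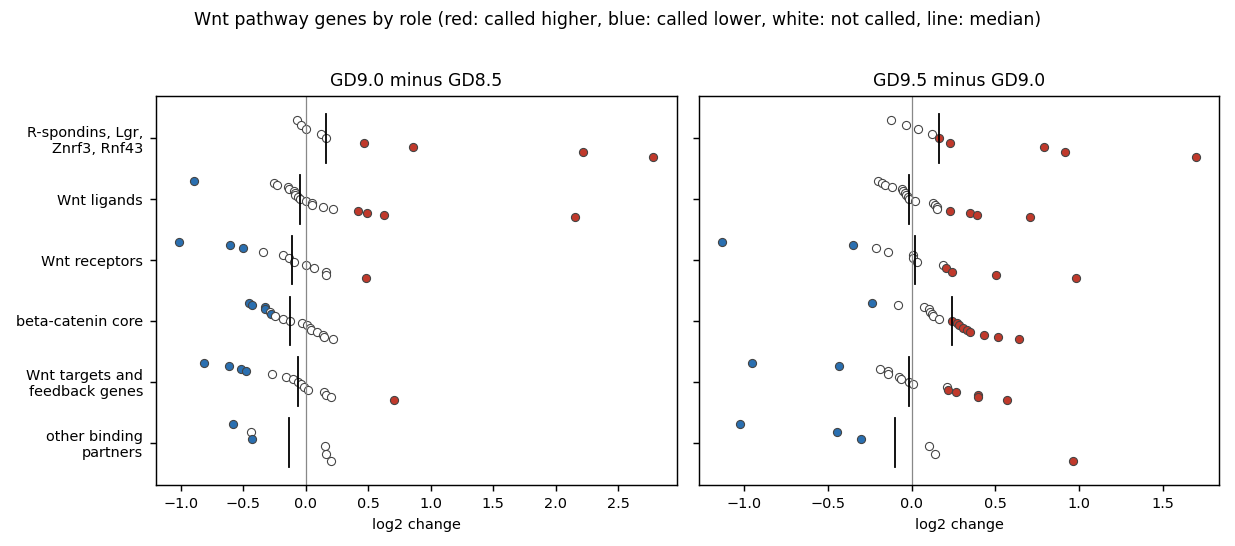
Log2 change (horizontal axis) of each gene in the family and in 5 Wnt pathway lists (vertical axis) for the first interval (left) and the second (right). Each point is a gene, red where called higher, blue where called lower and white where not called, and black lines are medians. Rspo2, Rspo1 and the ligand Wnt8b stand apart on the left at 2.78, 2.22 and 2.16, and Rspo3 on the right at 1.70.

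Tissue markers moved beside the rise of the ligands. Of 10 neural tube genes 6 rose and 0 fell in the first interval and 9 and 0 in the second. All 10 were above the background at each stage, and the list's mean level went from 6.18 to 6.23 at GD8.5 up to 6.72 to 6.81 and 7.31 to 7.39. With GD8.5 from the linear arrays 3 rose and 1 fell in the first interval. Of 8 measured roof plate genes 0 rose and 1 fell, then 3 rose and 0 fell. With the linear arrays 3 rose and 2 fell in the first, and without GD8.5 replicate 3, 0 fell. Over the full day 3 rose (Msx1, Bmp6 and Wnt3a) and 2 fell (Msx2 and Lmx1b), though 0 fell without GD8.5 replicate 3. The mean level of the roof plate list stayed between 3.03 and 3.24 over all arrays, with single genes moving both ways. Of 7 erythroid genes 6 rose at each step, with mean levels of 5.16 to 5.37, 6.47 to 6.55 and 7.14 to 7.29. With GD8.5 from the linear arrays 1 erythroid gene fell in the first interval. Without shared probe sets 3 rose at each step, because all probe sets of Hbb-y, Hbb-bh1 and Alas2 were of the shared kind. No call of an erythroid gene still tested was lost there.

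Markers of several other tissues were called lower. All 12 cardiac muscle genes and all 12 endoderm and yolk sac genes fell in the first interval and 10 of each in the second. The cardiac mean went from 5.49 to 5.56 at GD8.5 down to 3.00 to 3.10 and 1.40 to 1.57, and 6 of the 12 were still above the background at the last stage. For endoderm and yolk sac the mean went from 6.08 to 6.11 down to 3.22 to 3.35 and 1.56 to 1.62, with 8 of 12 above the background at GD9.5. Of 7 surface ectoderm genes 5 and then 6 fell, and of 8 caudal progenitor genes 4 fell in the first interval and 0 in the second. Mesenchyme genes went both ways (3 rose and 5 fell, then 3 rose and 2 fell; 2 fell in the first without GD8.5 replicate 3), and of 7 endothelial genes 1 rose and 1 fell, then 4 fell. The array's 18S control level was 9.82 to 9.83, 8.65 to 9.05 and 10.2 to 10.4 at the 3 stages. The actin 3' minus 5' difference was 0.70 to 0.72, 0.53 to 0.59 and 0.90 to 0.97. For Gapdh the same difference was smaller, at 0.03 to 0.04, -0.02 to 0.01 and 0.02 to 0.09. The part of tissue mix and RNA quality in the ligands' rise was not tested, and in such bulk samples more cells of a type and more RNA per cell cannot be told apart.

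**Figure D5:**
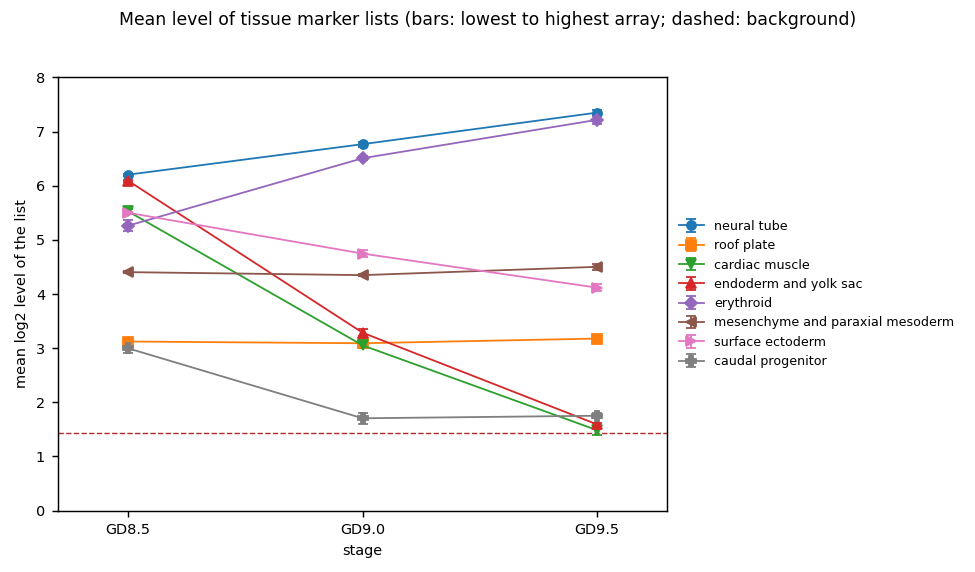
Mean log2 level (vertical axis) of 8 marker lists at the 3 stages (horizontal axis), with bars from the lowest to the highest array and the background of 1.43 as a dashed line. The neural tube and erythroid lists climb, the roof plate list stays between 3.03 and 3.24, and the cardiac and endoderm lists fall to between 1.40 and 1.62.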

How the data were processed

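Biotin-labelled RNA was read on whole-genome mouse arrays from Affymetrix, as the labels state. RMA, GCRMA and Affymetrix Expression Console are listed in the submitters' processing notes. Their role for each array is not given in the sources used. The authors deposited log2 levels for 10 arrays, already normalized (sorted values differ by at most 0.27), and linear intensities for GD8.5 replicates 1 and 2. On log2 of these intensities the offset to the other GD8.5 arrays was 4.13, with an SD of 0.26 above a level of 5 and 1.37 below 2, so these 2 arrays were left out. The planned fit thus had 2 arrays, not 4, at GD8.5.

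Probe sets were named from the platform annotation with symbols updated through the GRCm38.p6 gene table (18145 of 18193 genes matched). Of 45101 probe sets, 64 were controls, 932 named several genes and 9160 none. Each gene was represented by its brightest single-gene probe set. A mean per stage was fitted with limma 3.58.1 in R 4.3.3 (7 residual degrees of freedom, prior 3.86), with Benjamini-Hochberg adjustment over all genes. The number of arrays limits the precision. The fit was tested on simulated data. Members and lists were chosen with earlier results of these data known. Tcf7 and Gdf7, among the list genes, had no single-gene probe set.

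Named genes were all members, up to 3 called genes per direction from a list (some of which are left out here), and the 3 genes most like each rising ligand. Wnt1, Lrp6, Ctnnb1, Axin2 and Csnk1a1 were added after their values were seen. Tcf7l1 is also named, though it falls outside that rule. Equal replicate numbers did not pair samples (correlations of deviations from -0.059 to 0.12), so no block was used. Another 10 settings and leaving out each of 10 arrays were tried. The olfactory background was chosen after seeing the data.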

Additional observations from a re-analysis of the deposited data

Results flagged for a closer look

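The dimmer of the Lgr6 probe sets stood out on the 2 linear GD8.5 arrays, which no stage comparison used. Its log2 intensity was 6.74 on replicate 1 and 6.82 on replicate 2, above the 95th percentile of olfactory receptor genes on the same arrays (6.38 and 6.55). On the GD8.5 log2 arrays it read 1.20 and 1.19, under that percentile there (1.51 and 1.61). Of the 30 groups of 4 arrays tested over the 15 probe sets, 0 held an array far from its group, where chance gives about 1 in 20.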

How the results depend on the processing

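Rspo1, Rspo2 and Rspo3 kept direction and call in all 3 comparisons under the 10 settings and without each array. The family was chosen on these changes and the settings reuse most of the same arrays, so this is no separate support. Leaving out 1 array moved the counts of genes higher and lower to between 630 and 1200 and between 754 and 1203 in the first interval (both lows without a GD8.5 array: 772 and 754 without replicate 3, 630 and 757 without replicate 4), and members higher in the second to between 3 and 5 (3 without GD9.5 replicate 4). Lgr5 ranged from 0.40 to 0.53 and, over the day, from 0.44 to 0.57, with both calls lost without GD8.5 replicate 4. Lgr4 in the second interval ranged from 0.14 to 0.18, its call lost without 5 of the arrays, and Znrf3 from 0.20 to 0.26, lost without GD9.5 replicate 4. With all 12 arrays the second interval had 1259 genes higher and 1036 lower, 3 members and 10 pathway genes higher, Lgr4 at 0.15 and Znrf3 at 0.18, both not called. With GD8.5 from the linear arrays, stage and kind of array cannot be told apart in comparisons with GD8.5. That fit had 4116 genes higher and 2915 lower in the first interval, with 13 pathway genes higher and 1 member lower (Lgr4, -0.22, now called). The second then had 1656 genes and 3 members higher, with Lgr4 (0.15) and Znrf3 (0.18) not called, and the full day 4763 genes higher, Znrf3 (0.23) not called, and Rspo4 at 0.69, called in the opposite direction, with its log2 arrays around the background. Averaging probe sets per gene left 3 members higher in the second interval and 3 over the day, without calls for Lgr5 (0.21 and 0.23), Lgr4 (0.12) and Znrf3 (0.12 and 0.20). Repeated quantile normalization left Lgr4 at 0.15 without a call. The replicate block, which has no basis in the labels, left Lgr5 at 0.38 and Lgr4 at 0.16 without calls. Lgr4, Lgr5 and Znrf3 have second probe sets near the background, which lowers means over probe sets; for the other settings the cause was not tested. Signals near 1.43 bound what can be seen for Rspo4, Lgr6 and Rnf43.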
